A study of Homo sapiens with 4 samples.

Results

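The genes described here encode the general pre-mRNA splicing factors of the SR and hnRNP families, the SF3A and SF3B subunits of the U2 small nuclear ribonucleoprotein (U2 snRNP) and the U2 auxiliary factor. They were taken as transcript clusters, the gene-level units of the array, with a single protein-coding platform symbol starting with SRSF or HNRNP, or made of SF3A, SF3B or U2AF and a number. Pseudogenes were left out, and the cluster with the highest mean signal stood for a gene with several. This gave 37 of the 22465 genes with 1 symbol: 10 SRSF, 16 HNRNP, 3 SF3A, 6 SF3B and 2 U2AF genes. U2AF1L4, whose symbol runs on after the number, was not counted.

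The arrays hold RNA of SH-SY5Y, an established human neuroblastoma line with adrenergic neuroblast features that takes on a neuron-like shape when differentiated. The LSD1+8a shRNA group (2 arrays) received a short hairpin RNA against LSD1+8a, and the control shRNA group (2 arrays) received a control hairpin. LSD1 is a histone demethylase encoded by KDM1A, and its +8a isoform arises when the neuronal microexon 8a is spliced in. Both groups were differentiated in the same way, first by 4 days with retinoic acid at 10 μM and afterwards by 3 days in medium without serum that held the neurotrophin BDNF at 50 ng/mL. The labels name no hairpin sequence or clone, and they do not say whether replicates were separate cultures, so the p-values below speak only of how far apart these arrays were, which may reflect technical spread.

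As background, SR proteins carry RNA recognition domains and a tail rich in arginine and serine, bind mostly exons, and help the spliceosome to define them. Proteins of hnRNP type coat nascent transcripts, and many of them oppose exon inclusion where SR proteins favour it. U2AF reads the 3' splice site and hands it to the U2 snRNP, in which the SF3A and SF3B proteins clamp the branch site. Many SR and hnRNP genes limit their own output by splicing an exon with a premature stop codon into their transcripts, which are then degraded by nonsense-mediated decay. Microexons such as exon 8a of KDM1A are included in neurons, and a part of the genes described here in that inclusion was not tested.

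The values are log2 signals, on which a difference of 1 is a doubling of signal. Each is a single summary for a gene as a whole, so it shows neither which isoforms nor which exons were present. In bulk RNA, fewer cells that express a gene and less of its RNA per cell cannot be told apart. KDM1A gave 8.76 and 8.78 in LSD1+8a shRNA cells against 9.10 and 9.25 in control cells, a difference of -0.41 ± 0.09 (SE; limma adjusted p = 0.0299), which does not isolate exon 8a. It did not pass after cyclic loess (-0.30, limma adjusted p = 0.0573) or without any 1 of the 4 arrays (-0.48 to -0.33, limma adjusted p = 0.0559 to 0.194). Of 10 adrenergic neuroblast markers 9 were measured and above background, with a median signal of 9.64, and their summed signal was 87.0 to 88.4 with the LSD1+8a shRNA against 85.7 to 86.7 with the control shRNA (3 called higher, 1 lower). Of 6 Schwann or glial markers 4 were measured (2 called higher), and their summed signal was 23.81 to 24.02 with the LSD1+8a shRNA against 22.85 to 23.25 with the control shRNA. Of 6 mesenchymal markers 5 were measured (2 called lower), summing to 29.60 to 30.14 with the LSD1+8a shRNA and 30.06 to 30.15 with the control shRNA. Only 4 of these 5 were above background, as PRRX1 read 3.99 with the LSD1+8a shRNA and 3.76 with the control shRNA (means). LUM, 1 of the 2 called lower, was dim, at means of 5.08 and 5.66. The part of these lists in the results was not tested. Each of the 37 genes lay above the median of the array's background features of GC counts 13 to 18 (4.71 and 4.72 on the LSD1+8a shRNA arrays, 4.50 and 4.43 on the control arrays) on every array, the dimmest being HNRNPCL2 at 5.45 to 5.76.

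As a description of sequence, the start regions of 4 of the genes are shown, with matches to 4 motifs in capitals. They run from 250 bases before to 50 after the start in RefSeq (GRCh38.p14). The 4 were picked by hand from described genes with 1 listed start. A part of the start regions in the differences was not tested. SRSF3, SF3B6 and HNRNPA2B1 were lower with the LSD1+8a shRNA, and U2AF2 did not pass the test. The motifs searched on both strands were the CCAAT box (CCAAT), the TATA box (TATAAA), the ETS core (CGGAAG) and an E2F-type site (TTTNNCGC); none of the matches shown overlaps another.
SRSF3, chr6:36594112-36594411, plus strand: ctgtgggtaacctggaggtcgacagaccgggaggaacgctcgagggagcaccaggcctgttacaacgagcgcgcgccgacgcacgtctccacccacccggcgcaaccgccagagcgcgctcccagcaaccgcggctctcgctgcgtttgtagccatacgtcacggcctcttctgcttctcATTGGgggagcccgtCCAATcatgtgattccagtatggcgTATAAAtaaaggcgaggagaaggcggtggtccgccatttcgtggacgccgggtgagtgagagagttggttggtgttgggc
SF3B6, chr2:24076277-24076576, minus strand: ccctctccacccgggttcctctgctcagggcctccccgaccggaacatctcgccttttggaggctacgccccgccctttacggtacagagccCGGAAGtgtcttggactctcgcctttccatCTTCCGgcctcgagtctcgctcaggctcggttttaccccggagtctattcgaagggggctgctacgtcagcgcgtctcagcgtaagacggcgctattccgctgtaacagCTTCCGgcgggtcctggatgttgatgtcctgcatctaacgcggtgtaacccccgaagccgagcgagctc
HNRNPA2B1, chr7:26200697-26200996, minus strand: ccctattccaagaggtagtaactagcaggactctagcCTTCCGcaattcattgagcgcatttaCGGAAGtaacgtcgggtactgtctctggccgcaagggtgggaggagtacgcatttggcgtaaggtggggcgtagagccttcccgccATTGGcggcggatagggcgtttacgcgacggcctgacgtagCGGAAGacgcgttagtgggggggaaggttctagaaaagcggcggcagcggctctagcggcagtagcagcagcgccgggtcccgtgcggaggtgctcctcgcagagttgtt
U2AF2, chr19:55654785-55655084, plus strand: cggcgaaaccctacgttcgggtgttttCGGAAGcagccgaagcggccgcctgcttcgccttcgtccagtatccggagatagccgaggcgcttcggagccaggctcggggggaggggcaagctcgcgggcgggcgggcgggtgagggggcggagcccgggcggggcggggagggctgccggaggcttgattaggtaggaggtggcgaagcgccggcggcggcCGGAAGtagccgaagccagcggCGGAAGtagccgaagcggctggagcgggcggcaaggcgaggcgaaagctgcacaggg
SRSF3 holds 1 TATA box and 2 CCAAT boxes and no ETS core, SF3B6 holds 3 ETS cores, HNRNPA2B1 holds 3 ETS cores and 1 CCAAT box, and U2AF2 holds 3 ETS cores. Over the families, 36 of the 37 genes had a start region in the table (SF3B3 is named only), 9 of them with several listed starts, of which the first listed was used. The ETS core was present in 20 of 36 (55.6%), against 26.0% of 13932 start regions of tested protein-coding genes and 19.9% of all 27305. It was found in 9 of the 15 genes that were lower (60.0%) and in 11 of the other 21 (52.4%). The median GC content of the 36 regions was 63.17%, against 63.00% in those of tested protein-coding genes and 58.33% in all. The CCAAT box was present in 14 of 36 (38.9%), against 36.4% of start regions of tested protein-coding genes and 35.7% of all. The TATA box was present in 5 (13.9%), against 9.24% and 12% of the same sets, and the E2F-type site in 5 (13.9%), against 8.85% and 6.90%. A match is a description of the letters and not of binding.

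Several SR, hnRNP and U2 snRNP genes were lower with the LSD1+8a shRNA, and no gene of the families was called higher. With limma over all 22465 genes at an adjusted p of 0.05, 15 of the 37 genes were lower and 0 higher (24 lower and 0 higher at an unadjusted p under 0.05, where 4040 of all genes and 785 of the 2550 genes with a mean log2 signal of at least 8 were lower), with 22 not past the threshold. Over all genes, 11.2% were called lower and 12.1% higher, and among the genes at or above a signal of 8, the range in which 27 of the 37 lie, 18.4% were lower and 4.63% higher. Of those 27 genes, 11 were lower (40.7%). The median difference was -0.29 over the 37 genes, 0.08 over all genes and -0.09 over genes at or above a signal of 8. The 2 LSD1+8a shRNA arrays both lay below both control arrays for 28 of the 37 genes (75.7%), against 27.7% of all genes and 47.6% of genes at or above 8. Both lay above the control arrays for 1 of the 37 (SF3B5), against 46.7% of all genes and 510 of the 2550 at or above 8. The differences were small: none of the 15 reached 1.5-fold, and they ran from 1.24-fold (SRSF1) to 1.48-fold lower (SF3B6). In the same arrays 15 of 18 cell cycle markers were lower as well, and their part in the splicing factor result was not tested.

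**Figure D1:**
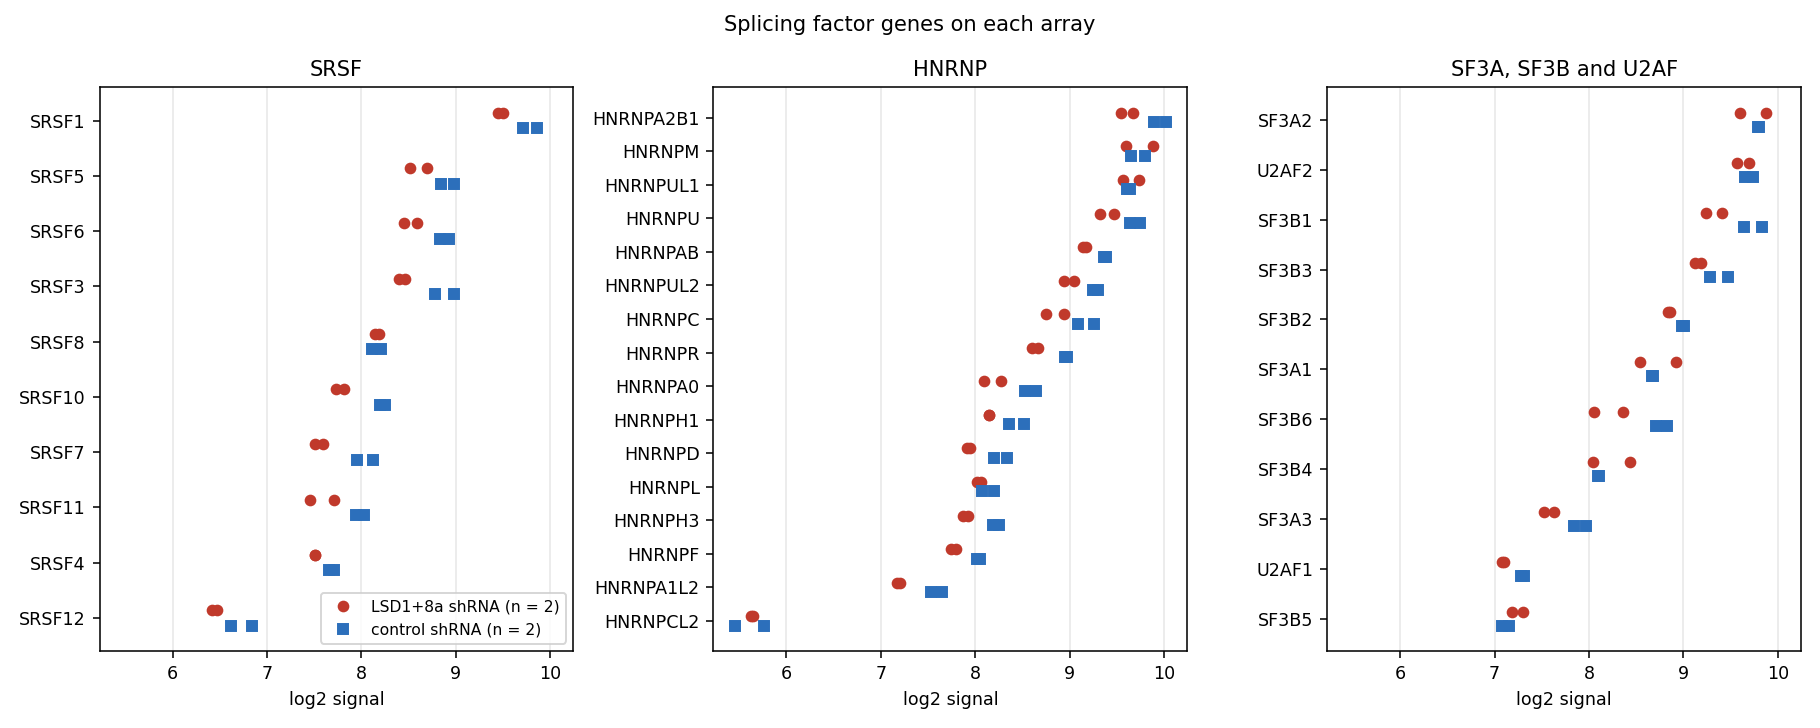
Log2 signal (x axis) of each of the 37 genes (y axis, brightest at the top of each panel) on the 2 LSD1+8a shRNA arrays (red circles) and the 2 control shRNA arrays (blue squares), in panels by family. For 28 of the 37 genes both red points lie left of both blue points, and SF3B5 is the gene with both to the right.

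The count depended on the scaling between arrays. After cyclic loess, which removes the dependence of the difference on signal level, 3 of 37 genes remained called lower (SRSF7, SRSF10 and HNRNPA1L2) and 0 higher, a share of the families close to the 7.85% of all genes called lower there (3.03% higher). The median of the 37 was then -0.21, against 0.01 over all genes and 0.00 over genes at or above a signal of 8, and 29 of the 37 differences were below 0. Among genes at or above a signal of 8, 6.43% were called lower there. At an unadjusted p under 0.05, 19 of the 37 were lower after cyclic loess, against 4500 of all 22465 genes. The other 12 genes of the 15 kept their sign there, with adjusted p from 0.0548 (SRSF3) to 0.139 (HNRNPA2B1). With 1 array left out, limma called 1 of the 37 lower without LSD1+8a shRNA replicate 1 (3.94% of all genes lower, 2.10% higher), 7 without LSD1+8a shRNA replicate 2 (8.79% lower, 3.83% higher), and 0 without either control array, where it called 0 of all genes as well (at an unadjusted p under 0.05, 23 of the 37 and 3776 of all 22465 genes were lower without control replicate 1, and 13 of the 37 and 2503 of all genes without control replicate 2). In each of these fits 1 group is a single array, assumed to vary like the other group, so a lost call there also reflects having fewer arrays. Quantile normalization also left 3 of the 37 (8.38% of all genes lower, 6.38% higher), and centring on medians gave 17 (12.2% lower, 4.94% higher). At an adjusted p of 0.01, 0 of the 37 were lower (0.677% of all genes lower, 0.107% higher; 24 of the 37 at an unadjusted p under 0.05), and at 0.1 it was 24 (17.2% lower, 25.4% higher). With the replicate number as a block 22 were lower (15.7% of all genes lower, 19.7% higher), with trended and robust moderation 14 (12% lower, 13.4% higher), among genes above the median level 19 of 36 (19.9% lower, 11.8% higher), and with the mean over clusters 15 (11.3% lower, 12.2% higher).

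**Figure D2:**
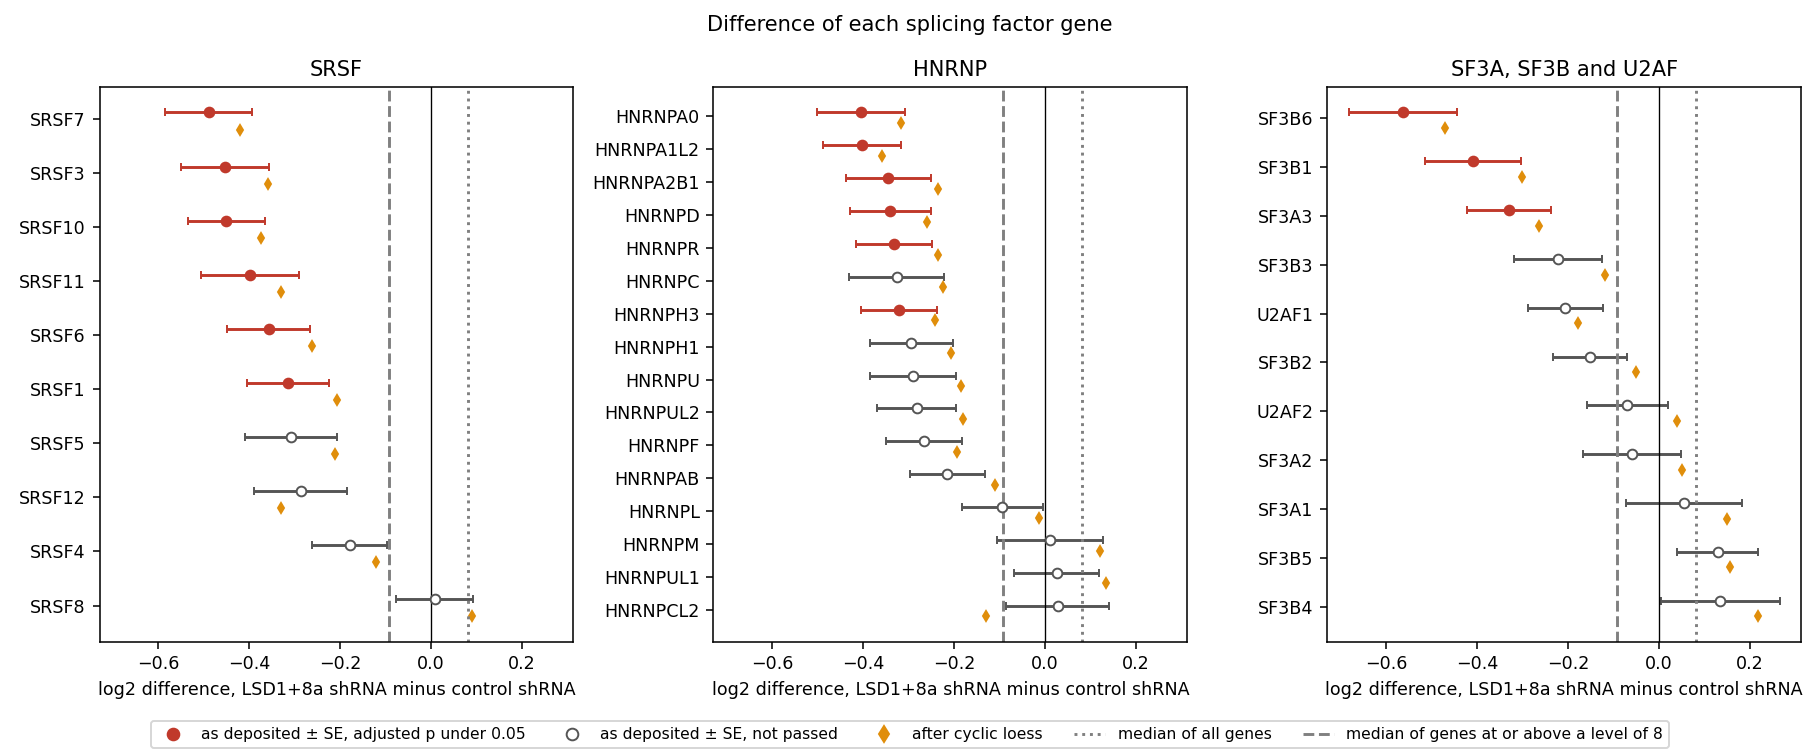
Log2 difference, LSD1+8a shRNA minus control shRNA (x axis), of each gene (y axis) as deposited (circles with limma's SE, filled where lower at an adjusted p of 0.05) and after cyclic loess (orange diamonds). The dotted and dashed lines mark the medians of all genes (0.08) and of genes at or above a signal of 8 (-0.09) as deposited; 15 circles are filled, all left of both lines.

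The SR genes had the largest share of lower genes among the families, 6 of 10, with a median difference of -0.34. By comparison, 11.2% of all genes and 18.4% of genes at or above a signal of 8 were lower. Of the 10 SR genes, 2 stayed lower after cyclic loess and 2 after quantile normalization, where 7.85% and 8.38% of all genes were lower. SRSF7, an SR protein that also takes part in RNA export and 3' end choice, read 7.51 and 7.59 in LSD1+8a shRNA cells, compared with 7.95 and 8.12 in control cells. Its difference was -0.49 ± 0.09 (SE), which is 1.40-fold lower (limma adjusted p = 0.0234), and the groups did not overlap. SRSF3, the smallest SR protein, had signals of 8.40 and 8.46 with the LSD1+8a shRNA and 8.78 and 8.98 with the control shRNA. It was 1.37-fold lower, a difference of -0.45 ± 0.10 (SE; limma adjusted p = 0.0282). SRSF10, an SR protein that turns into a splicing repressor when dephosphorylated, gave 7.74 and 7.81 in LSD1+8a shRNA cells and 8.20 and 8.25 in control cells. Its difference was -0.45 ± 0.09 (SE; limma adjusted p = 0.0223). The cluster used for SRSF10 lies on an unlocalised contig of chromosome 1, and its other cluster gave a like difference of -0.55 at a lower signal (6.29 with the LSD1+8a shRNA, 6.84 with the control shRNA).

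Further SR genes moved by less. SRSF11, a protein with an arginine-serine tail that takes part in splice site choice, read 7.45 and 7.71 in LSD1+8a shRNA cells and 7.94 and 8.03 in control cells, so its LSD1+8a replicates lay apart by more than the control pair. SRSF6, a regulator of exon inclusion, read 8.46 and 8.59 in LSD1+8a shRNA cells against 8.83 and 8.93 in control cells. SRSF1, the founding SR protein and a factor in splicing, export and translation, was the brightest of the family at 9.44 and 9.50 with the LSD1+8a shRNA and 9.71 and 9.86 with the control shRNA. These 3 genes were lower by 0.40 ± 0.11, 0.36 ± 0.09 and 0.31 ± 0.09 on the log2 scale (SE; limma adjusted p = 0.0412, 0.0381 and 0.0470), and none overlapped between groups. For SRSF5 and SRSF12, differences of -0.31 and -0.29 did not pass (limma adjusted p = 0.0591 and 0.0710), although both arrays of each group lay apart. SRSF4 differed by -0.18 (limma adjusted p = 0.130), with signals of 7.51 and 7.51 in LSD1+8a shRNA cells against 7.66 and 7.71 in control cells. SRSF8, a close relative of SRSF2, had the same mean within the spread, 8.17 ± 0.03 with the LSD1+8a shRNA and 8.16 ± 0.06 with the control shRNA (SD, n = 2), and is the SR gene whose groups overlapped.

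Among hnRNP genes, 6 of 16 were lower, 0 higher and 10 not past the threshold, with a median difference of -0.29. By comparison, 11.2% of all genes and 18.4% of genes at or above a signal of 8 were lower. Of the 16 hnRNP genes, 1 stayed lower after cyclic loess and 1 after quantile normalization, where 7.85% and 8.38% of all genes were lower. The 6 genes lower as deposited were of the A and B, D, H and R types. HNRNPA0, an intronless member of the A and B type that binds AU-rich RNA, read 8.27 and 8.10 in LSD1+8a shRNA cells, compared with 8.53 and 8.64 in control cells. Its difference was -0.40 ± 0.10 (SE; limma adjusted p = 0.0346), or 1.32-fold lower. HNRNPA2B1, the brightest hnRNP gene, whose protein also sorts RNAs for transport, read 9.55 and 9.67 with the LSD1+8a shRNA against 9.89 and 10.02 with the control shRNA, a difference of -0.34 ± 0.09 (SE; limma adjusted p = 0.0412). HNRNPA1L2, an expressed copy of HNRNPA1, had 7.20 and 7.17 in LSD1+8a shRNA cells and 7.53 and 7.65 in control cells, 1.32-fold lower (limma adjusted p = 0.0281). Its probes may share transcripts with HNRNPA1 and its many processed copies, so this value is uncertain as to its source. The clusters of 2 HNRNPA1 pseudogenes, HNRNPA1P8 and HNRNPA1P33, differed by -0.50 and -0.25 in the same arrays.

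HNRNPD, known as AUF1, a factor in the decay of AU-rich messages, read 7.94 and 7.91 with the LSD1+8a shRNA against 8.20 and 8.33 with the control shRNA. HNRNPR, which binds transcripts transported along axons, read 8.66 and 8.60 with the LSD1+8a shRNA against 8.95 and 8.97 with the control shRNA. HNRNPH3, a relative of the G-rich RNA binding proteins H and F, had 7.88 and 7.92 in LSD1+8a shRNA cells against 8.19 and 8.25 in control cells. They were lower by 0.34 ± 0.09, 0.33 ± 0.08 and 0.32 ± 0.08 on the log2 scale (SE; limma adjusted p = 0.0391, 0.0368 and 0.0387). A second and much dimmer cluster of HNRNPR read 5.34 with the LSD1+8a shRNA and 6.15 with the control shRNA (means), a difference of -0.81, so the size for this gene depends on the cluster. Another 5 hnRNP genes stood just short of the threshold, all without overlap between groups: HNRNPUL2 (limma adjusted p = 0.0522), HNRNPH1 (0.0533), HNRNPF (0.0536), HNRNPC (0.0572) and HNRNPU (0.0585), with differences of -0.28, -0.29, -0.27, -0.33 and -0.29. Both LSD1+8a shRNA arrays lay below both control arrays for 27.7% of all genes and 47.6% of genes at or above a signal of 8 as well. When only protein-coding genes were tested, all 5 were among 22 of the 37 genes called lower, against 17.0% of all protein-coding genes called lower and 21.3% higher. Their limma adjusted p ran from 0.112 (HNRNPH1) to 0.191 (HNRNPC) after cyclic loess, and from 0.1195 (HNRNPF) to 0.244 (HNRNPU) after quantile normalization.

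The remaining hnRNP genes differed by less. HNRNPAB, another A and B type protein, differed by -0.21 ± 0.08 (SE; limma adjusted p = 0.0848), and HNRNPL, which binds CA-rich RNA, by -0.09 ± 0.09 (SE; limma adjusted p = 0.429). HNRNPM, a splicing regulator with several RNA recognition domains, read 9.88 and 9.60 with the LSD1+8a shRNA and 9.65 and 9.80 with the control shRNA, so that the LSD1+8a arrays lay on either side of the control pair. HNRNPUL1, a relative of HNRNPU, lay likewise, at 9.74 and 9.56 with the LSD1+8a shRNA against 9.64 and 9.61 with the control shRNA, with 1 LSD1+8a array on each side. HNRNPCL2, one of a set of near-identical HNRNPC copies, was dim, at 5.65 and 5.62 in LSD1+8a shRNA cells against 5.76 and 5.45 in control cells. These 3 genes differed by 0.01 to 0.03, within the spread between replicates.

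The U2 snRNP and U2AF genes were split. Of 11 genes 3 were lower (27.3%) and 0 higher, while 11.2% of all genes and 18.4% of genes at or above a signal of 8 were lower. After cyclic loess, and likewise after quantile normalization, 0 of the 11 were lower. Their median difference as deposited was -0.15, with medians of -0.06 for SF3A, -0.19 for SF3B and -0.14 for U2AF genes. SF3B6, the subunit that contacts the branch point adenosine (SF3B14 on the platform), had the largest difference of all 37 genes. It read 8.05 and 8.36 in LSD1+8a shRNA cells and 8.71 and 8.83 in control cells, a difference of -0.56 ± 0.12 (SE), or 1.48-fold lower (limma adjusted p = 0.0275). SF3B1, the scaffold of SF3B that holds the branch helix and is mutated in myeloid neoplasms, read 9.24 and 9.41 in LSD1+8a shRNA cells, against 9.64 and 9.83 in control cells. It was 1.33-fold lower (difference -0.41 ± 0.11, SE; limma adjusted p = 0.0383). SF3A3, the SF3A subunit that bridges to the U2 RNA, read 7.63 and 7.53 with the LSD1+8a shRNA against 7.85 and 7.97 with the control shRNA, a difference of -0.33 ± 0.09 (SE; limma adjusted p = 0.0435).

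Partner subunits of the same complexes did not pass. SF3B3, a WD-repeat-like scaffold, and SF3B2, another subunit of the complex, differed by -0.22 and -0.15 (limma adjusted p = 0.116 and 0.186). SF3B4, an RNA-binding subunit, read 8.43 and 8.04 with the LSD1+8a shRNA against 8.10 and 8.11 with the control shRNA, and SF3A1 8.92 and 8.54 with the LSD1+8a shRNA against 8.67 and 8.68 with the control shRNA. In both, LSD1+8a replicate 1 lay above the control pair and replicate 2 below it. SF3A2, the brightest SF3A gene, showed the same pattern at 9.87 and 9.60 in LSD1+8a shRNA cells against 9.79 and 9.80 in control cells. SF3B5, the smallest subunit, stood above on both LSD1+8a arrays, at 7.30 and 7.18 against 7.15 and 7.08 on the control arrays, but its difference of 0.13 ± 0.09 (SE) did not pass (limma adjusted p = 0.284). U2AF1, the subunit that reads the AG of the 3' splice site, had 7.08 and 7.10 in LSD1+8a shRNA cells and 7.28 and 7.31 in control cells, a difference of -0.21 ± 0.08 (SE; limma adjusted p = 0.0947). Its partner U2AF2, which binds the polypyrimidine tract, read 9.69 and 9.57 with the LSD1+8a shRNA against 9.66 and 9.74 with the control shRNA, with a difference of -0.07 ± 0.09 (SE; limma adjusted p = 0.568). Whether subunits of the same complex differed from each other in their response was not tested.

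**Figure D3:**
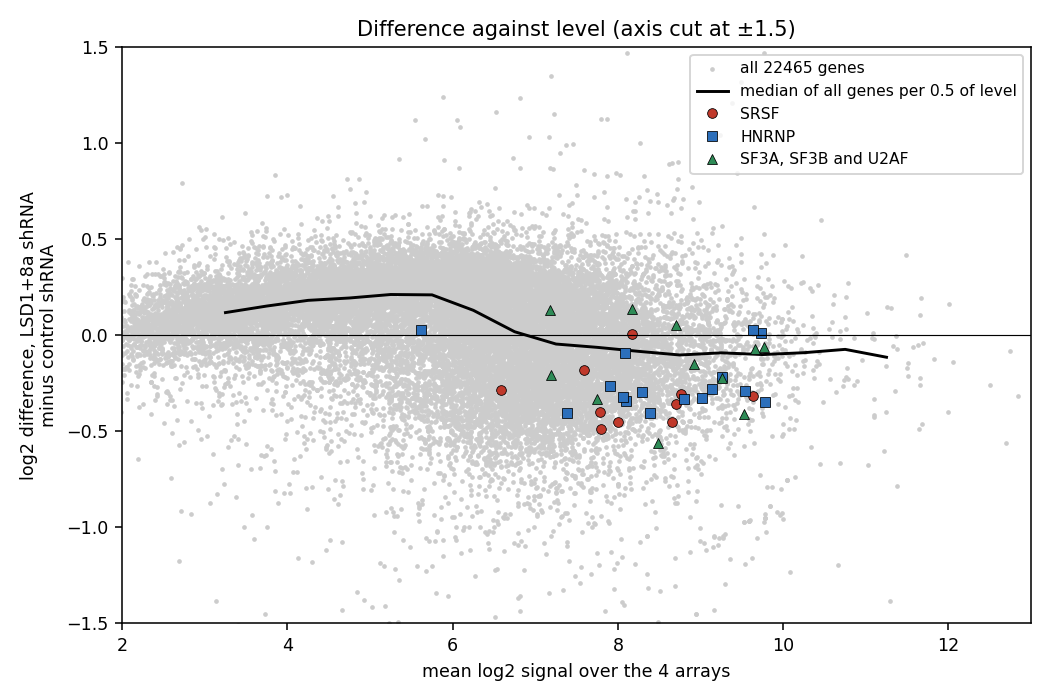
Log2 difference, LSD1+8a shRNA minus control shRNA (y axis, shown to 1.5 either side of 0), against the mean log2 signal over the 4 arrays (x axis) for all 22465 genes (grey), with their running median (black line) and the genes of the 3 family groups (coloured). The black line falls below 0 at higher signals, and of the 37 genes 28 lie below the median of genes at or above 8 (-0.09).

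The 5 genes on chromosome 19 all stood near 0. HNRNPL, HNRNPM, HNRNPUL1, SF3A2 and U2AF2 had differences from -0.09 to 0.03 with a median of -0.06, and 0 of the 5 were called (0 also at an unadjusted p under 0.05). The other 32 genes had a median of -0.31, with 15 lower. Over all 211 genes of chromosome 19 at or above a signal of 8, the median was 0.05 and 6.64% were lower. This grouping was seen in the values, so it is a description without a test. The start regions of the 5 had a GC content of 63.67% to 72.33%, with a median of 66.67%, against medians of 62.00% in the 15 lower genes and 67.00% in the 21 not called, which include these 5. The part of base composition in these signals was not tested, as neither probe sequences nor transcript sequences were used.

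Clusters that name a family gene beside other symbols fell outside the choice and were not in the fit, but they include well-known factors. Of these 9 clusters, 8 had a lower mean with the LSD1+8a shRNA, with a median difference of -0.22 and no test. A difference below 0 was found for 8758 of the 22465 genes in the fit and for 1641 of the 2550 at or above a signal of 8. SRSF2, which shares its cluster with MIR636, read 9.42 with the LSD1+8a shRNA and 9.55 with the control shRNA (means, n = 2), a difference of -0.13. HNRNPK, listed with MIR7-1, read 9.13 with the LSD1+8a shRNA and 9.41 with the control shRNA, and the cluster of HNRNPA1 and 2 of its copies 10.19 with the LSD1+8a shRNA and 10.40 with the control shRNA. The clusters of SRSF9, HNRNPDL, HNRNPA3, HNRNPH2 and HNRNPLL differed by -0.21, -0.22, -0.29, -0.20 and -0.38. HNRNPU-AS1, named as antisense to HNRNPU, differed by -0.60 against -0.29 for HNRNPU itself.

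Other genes of the splicing pathway were counted in lists by role, against which stand 11.2% of all genes and 18.4% of genes at or above a signal of 8 called lower. Of 12 Sm and U1 proteins, the ring and recognition subunits of the small nuclear ribonucleoproteins, 7 were lower and 0 higher, with a median difference of -0.39. SNRPG had 4.85 and 5.19 in LSD1+8a shRNA cells against 5.45 and 5.84 in control cells, a 1.54-fold lower signal (limma adjusted p = 0.0372). Its LSD1+8a signals were near the background medians of those arrays (4.71 and 4.72), so the fold is uncertain. It did not pass after cyclic loess (-0.80, limma adjusted p = 0.05025). SNRPE and SNRPD2, Sm ring subunits like SNRPG, were 1.54-fold and 1.37-fold lower. Of 20 SR partners and kinases, 7 were lower and 0 higher, with a median of -0.25. TRA2B and TRA2A, SR-like activators of exon inclusion, were 1.43-fold and 1.35-fold lower, and CLK1, a kinase that phosphorylates SR proteins, 1.34-fold lower (limma adjusted p = 0.0165, 0.0410 and 0.0457). TRA2A and CLK1 did not pass after cyclic loess (limma adjusted p = 0.0791 and 0.0835). Of 10 hnRNP proteins under other symbols, 1 was lower and 0 higher (10.0%, median -0.11), namely SYNCRIP, hnRNP Q, at 1.36-fold.

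Of 15 further U2 and branch site proteins, 5 were lower and 0 higher, with a median of -0.25, led by PHF5A, an SF3B subunit (1.41-fold), BUD13 (1.30-fold) and U2SURP (1.30-fold). Tri-snRNP proteins, which carry the catalytic RNAs into the spliceosome, had 3 of 20 lower (median -0.21), among them PRPF4 at 1.36-fold, LSM3 at 1.30-fold and LSM4 at 1.26-fold. Proteins of the catalytic steps had 6 of 19 lower (median -0.27), including PLRG1 and BCAS2 of the PRPF19 complex (1.47-fold and 1.42-fold) and the RNA helicase AQR (1.38-fold). Of 5 exon junction complex genes 3 were lower: MAGOHB 1.85-fold, its paralogue MAGOH 1.39-fold and EIF4A3 1.22-fold. EIF4A3, and U2SURP and LSM4 named above, did not pass after cyclic loess (limma adjusted p = 0.110, 0.0503 and 0.0842). Of 7 factors of nonsense-mediated decay, UPF2 and SMG8 were 1.42-fold and 1.30-fold lower and 5 did not pass. The median of the 7 was -0.08, near the -0.09 of genes at or above a signal of 8. Both LSD1+8a shRNA arrays lay below both control arrays for 3 of the 7 and above them for 3, against 27.7% and 46.7% of all genes. None of these lists held a gene called higher, and the called shares of tri-snRNP (15%) and other hnRNP proteins (10%) lay near those of all genes. However, both LSD1+8a shRNA arrays lay below both control arrays for 19 of the 20 tri-snRNP genes and 5 of the 10 other hnRNP genes. The same held for 27.7% of all genes and 47.6% of genes at or above a signal of 8. After cyclic loess, with 7.85% of all genes and 6.43% of genes at or above 8 called lower, the counts of lower genes were 5 of 12 for Sm and U1 proteins, 3 of 20 for SR partners and kinases, 1 of 10 for other hnRNP proteins, 2 of 15 for U2 proteins, 3 of 20 for tri-snRNP proteins, 4 of 19 for catalytic proteins, 2 of 5 for the exon junction complex and 2 of 7 for decay factors.

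Most cell cycle markers were lower in the same arrays. Of 18 cell cycle markers, 15 were lower and 0 higher, with a median difference of -0.58, and 8 were lower after cyclic loess. Their summed log2 signal was 133.7 and 132.6 in LSD1+8a shRNA cells compared with 141.8 and 145.9 in control cells. CDK1, the mitotic kinase, was 2.12-fold lower, PCNA, the DNA polymerase clamp, 1.99-fold and CCNA2, cyclin A, 1.79-fold.

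**Figure D4:**
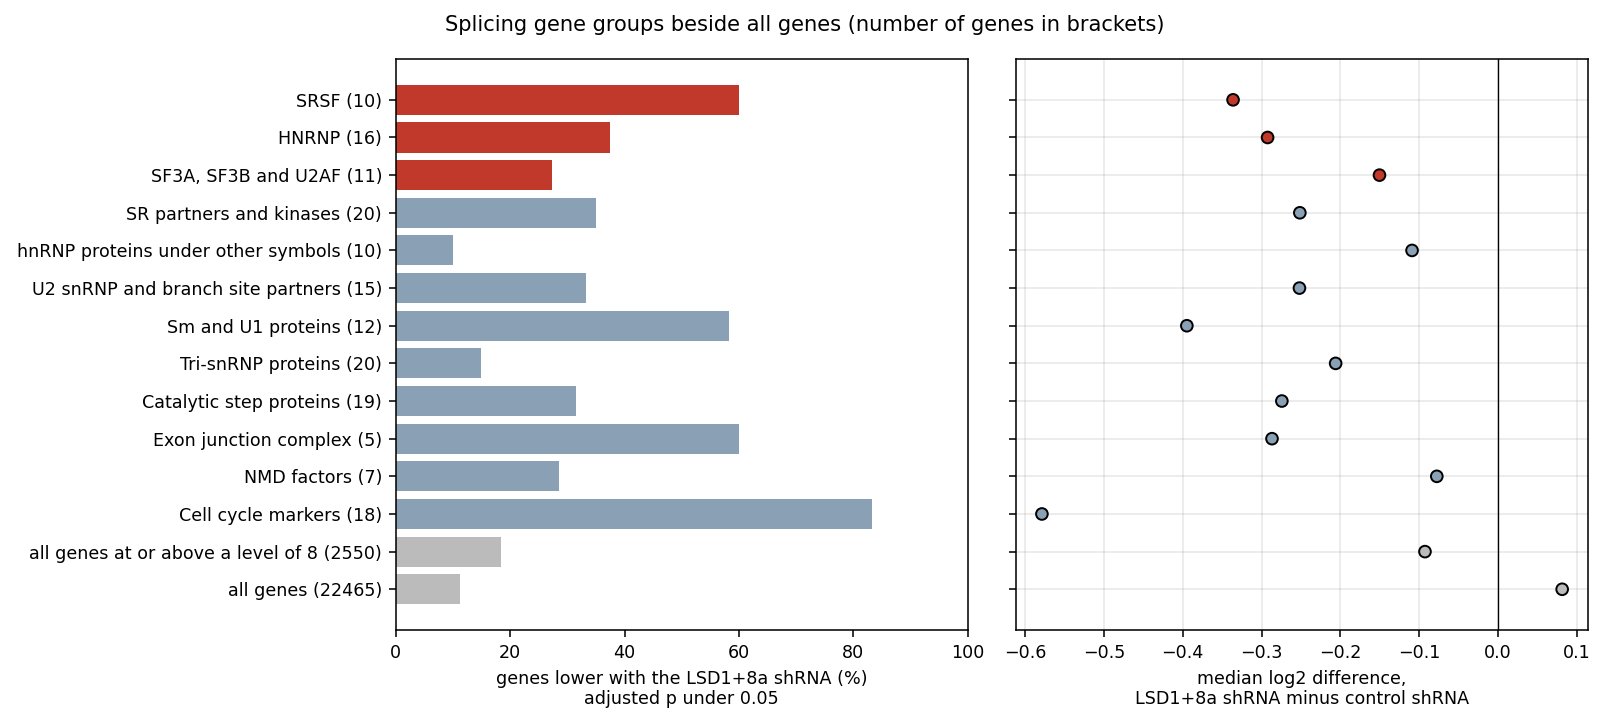
Share of genes lower with the LSD1+8a shRNA at a limma adjusted p of 0.05 (left, percent) and median log2 difference, LSD1+8a shRNA minus control shRNA (right), for the family groups (red), lists of related genes (blue grey) and all genes (grey), with the number of genes in brackets. SRSF genes stand at 60.0% and cell cycle markers at 83.3%, against 18.4% of genes at or above a signal of 8 and 11.2% of all genes.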

How the data were processed

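Each array has 1 log2 signal per feature, deposited by the authors. RMA is the tool that the submitters' processing notes name. For its software, version, annotation and build, nothing is given in the sources used here. The table held 70523 features, of which 67528 were transcript clusters. A single gene symbol was held by 23781 clusters, standing for 22465 genes, and RefSeq matched 22427 of these by Entrez ID, symbol or unambiguous synonym. Members and lists were chosen with earlier results of these data known. LSD1+8a shRNA minus control shRNA was fitted per gene on the values as deposited with limma 3.58.1 in R 4.3.3 (lmFit, eBayes), with Benjamini-Hochberg adjustment over all 22465 genes, a threshold of 0.05 and no filter. Errors are limma's SE or the SD over 2 arrays. The number of arrays limits the precision (2 residual and 5.41 prior degrees of freedom). The script was tested on simulated data.

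Genes described with per-array values were the 12 largest called differences and, per family, the largest difference and the highest mean. Other per-array values, and the chromosome 19 grouping, were chosen after the values were seen. Up to 3 called genes were named per related list. Other settings were each array left out, quantile normalization, the replicate number as a block, median centring, cyclic loess, trended and robust moderation, a level filter, protein-coding genes, the mean over clusters and other thresholds. Start regions came from RefSeq (GRCh38.p14). Protein sequences were not used here. Figures were drawn with matplotlib 3.10.9.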

Additional observations from a re-analysis of the deposited data

How the results depend on the processing

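The median difference of the 37 genes stayed below 0 under each setting tried, while the number called lower varied. It was 15 as reported, 3 after cyclic loess, 3 after quantile normalization, 14 with trended and robust moderation, 17 with arrays centred on their medians, 19 among genes above the median level, 22 among protein-coding genes, 15 with the mean over clusters, 0 at an adjusted p of 0.01 and 24 at 0.1. None was called higher under any of these. Leaving out 1 array gave 0 to 7. Of all genes called, 2721 were higher and 2524 lower as reported, 680 and 1763 after cyclic loess, and 1109 and 2736 with medians centred. The cause of these shifts was not tested. With 2 pairs, the replicate numbers were not taken to pair the arrays (correlation of the deviations of same-numbered arrays 0.02 across all genes and 0.31 across the 37), and a fit with the replicate number as a block called 22 lower, among them all 15.

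The median difference of the 37 genes was -0.21 after cyclic loess and -0.18 after quantile normalization, and -0.35 to -0.24 with 1 array left out. For SRSF genes no setting moved the median by more than the spread. For HNRNP genes it was -0.20 after cyclic loess, -0.18 after quantile normalization and -0.34 with medians centred, and -0.34 to -0.25 with 1 array left out. For SF3A, SF3B and U2AF genes it was -0.051, -0.028 and -0.20 under the same 3 settings, and -0.19 to -0.13 with 1 array left out. KDM1A did not pass after cyclic loess (-0.30, limma adjusted p = 0.0573), after quantile normalization (-0.28, 0.0610) or with any array left out (-0.48 to -0.33).

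Genes near 0 changed sign without passing the test. After cyclic loess HNRNPCL2 was at -0.13, SF3A2 at 0.051 and U2AF2 at 0.040. After quantile normalization HNRNPCL2 was at -0.072, HNRNPL at 0.0056, SF3A2 at 0.12 and U2AF2 at 0.10. With medians centred HNRNPCL2 was at -0.024, HNRNPM at -0.040, HNRNPUL1 at -0.025 and SRSF8 at -0.043. With 1 array left out, the lowest and highest differences were -0.13 and 0.18 for HNRNPCL2, -0.13 and 0.15 for HNRNPM, -0.060 and 0.11 for HNRNPUL1, -0.13 and 0.25 for SF3A1, -0.19 and 0.077 for SF3A2, -0.060 and 0.33 for SF3B4 and -0.036 and 0.052 for SRSF8. Over 443 single-gene results under other settings, 324 kept direction and call, 78 lost the call, 21 gained it and 20 changed sign.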
